A study of Mus musculus with 8 samples.

Results

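Genes of the mouse imprinted domains whose control region is known to be methylated on the maternal chromosome were described by their DNA methylation in splenic lymphocytes. The 37 members, of 53843 annotated genes on the autosomes and X, were chosen by their domains and not by their levels in these libraries. Earlier results of these data were known when they were chosen. Each was taken as its gene body in GENCODE with 10 kb on either side, which gave 23 regions once overlapping ones were merged, and all 216 annotated transcript starts of these genes were included. The regions were scanned in windows of 500 bp for stretches methylated at 30 to 70% in every library, so that a control region away from the gene start would be found as well. The assay was oxidative bisulfite sequencing of the whole genome (WGoxBS), in which oxidation before bisulfite is meant to leave only 5-methylcytosine to be read. There were 4 groups of C57BL/6J mice at 6 to 8 weeks of age, namely resting CD43- B cells and naive CD4+ CD62L+ T cells from the spleens of females and of males, with no transgene, deletion or treatment in the labels. T cells were depleted of CD8a-positive and other cells on magnetic columns and then sorted by flow cytometry, and cells of several mice were pooled for each sample. The 2 samples of a group name a single file, so a group is 1 library here and its values carry no replicate error. Levels listed together are given for B then T cells of females, followed by B then T cells of males.

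Genomic imprinting is the expression of a gene from only 1 of the parental chromosomes. At the maternally methylated domains the egg lays down methylation on a CpG-rich control region, the imprint, and most such regions are promoters of genes that are then expressed from the paternal chromosome only. The imprint is kept through the reprogramming of the early embryo by the zinc finger protein ZFP57 and its relative ZFP445, and it is carried into the tissues of the adult. In a cell population with an intact imprint, reads from the methylated maternal and the unmethylated paternal chromosome are mixed, so an intermediate level is read. C57BL/6J is inbred, so the parental chromosomes could not be told apart here, and in bulk DNA a methylated allele in every cell cannot be told apart from a methylated share of the cells.

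Summed over CpGs, the libraries held between 280919817 and 354634149 reads, with medians of 14 to 17 reads per listed autosomal CpG and the fewest in male B cells. A read that covers several CpGs counts at each of them. Read counts of windows, tiles, starts and stretches are summed in the same way, so they are not numbers of separate reads. Methylated reads made up 0.0709% to 0.727% of those at mitochondrial CpGs, the highest share being in male B cells. The labels of cell type were checked against gene starts. All 7 B cell markers were less methylated in both B cell libraries than in the T cell library of the same sex, and all 9 T cell markers were less methylated in both T cell libraries. Cd3d, a subunit of the T cell receptor complex, was at 93.7%, 2.56%, 94.9% and 2.17%. Among the markers of other cells, Cd8b1, a coreceptor chain of CD8 T cells, was at 86.4%, 15.7%, 89.7% and 12.97%, low in the T cells although the sort removed CD8a-positive cells. The Csf1r and Ncr1 starts, of myeloid and natural killer cells, were between 84.2% and 94.4% in all 4 libraries. Itgam, also of myeloid cells, was at 45.1%, 28.6%, 42.3% and 30.1%, Cd8a at 80.99%, 40.2%, 79.3% and 46.2%, and Epcam, of epithelial cells, at 13.2% to 19.5%, while Hba-a1 had too few CpGs to be read. The part of other cells in the results was not tested.

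The CpG-densest 200 bases outside exons of protein-coding genes are shown for 4 of the longer stretches, because these control regions are what the methylation values below are read from. The sequences are of GRCm38, plus strand, in lower case. Capitals mark TGCCGC or its complement GCGGCA, the hexamer that ZFP57 binds when its CpG is methylated. The pieces lie at chr7:6729586-6729785 in an intron of Peg3, at chr15:72809924-72810123 within Peg13 and an intron of Trappc9, at chr7:143295582-143295781 within Kcnq1ot1 and an intron of Kcnq1, and at chr6:4748213-4748412 in an intron of Peg10. The hexamer occurred 2 times in the Peg3 piece, 3 times in that of Peg13, 3 times in that of Kcnq1ot1 and 0 times in that of Peg10, which has 24 CpGs. Pieces were read in this way from 8 stretches, and the hexamer was in 4 of them. It was also in that of Airn and not in those of Gnas, Mest and Commd1, which are not printed.
Peg3: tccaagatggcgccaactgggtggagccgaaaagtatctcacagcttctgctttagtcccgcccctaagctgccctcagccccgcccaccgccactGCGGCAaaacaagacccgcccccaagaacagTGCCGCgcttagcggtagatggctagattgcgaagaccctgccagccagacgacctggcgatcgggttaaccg
Peg13: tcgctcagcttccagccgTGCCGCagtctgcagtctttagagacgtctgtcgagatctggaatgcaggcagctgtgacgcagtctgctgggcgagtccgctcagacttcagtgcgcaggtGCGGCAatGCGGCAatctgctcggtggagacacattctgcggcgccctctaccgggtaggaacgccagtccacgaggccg
Kcnq1ot1: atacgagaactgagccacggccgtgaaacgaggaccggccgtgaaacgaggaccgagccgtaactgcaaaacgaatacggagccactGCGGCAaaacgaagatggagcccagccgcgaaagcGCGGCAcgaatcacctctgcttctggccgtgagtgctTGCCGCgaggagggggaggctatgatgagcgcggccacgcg
Peg10: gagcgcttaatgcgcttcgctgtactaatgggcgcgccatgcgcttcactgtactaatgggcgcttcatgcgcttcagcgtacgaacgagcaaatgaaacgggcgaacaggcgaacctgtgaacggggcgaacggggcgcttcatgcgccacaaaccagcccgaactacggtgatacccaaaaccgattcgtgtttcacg

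Most of the regions around these genes were as fully methylated as the rest of the genome. Of 3882 windows with enough CpGs and reads, 3125 (80.5%) were above 70% in every library and 55 (1.42%) below 10% in every library. Over all 2586849 autosomal windows these shares were 84.0% and 1.81%. Windows at 30 to 70% in every library numbered 246, or 6.34%, where the share over all autosomal windows was 2.98%. In stretches of at least 2 such windows in a row, the members had 33 of the 6518 found on the autosomes (0.506%). The members' share rose with the length of the stretch. They had 15 of 654 stretches of at least 3 windows, 12 of 120 of at least 4, 10 of 32 of at least 5, 9 of 15 of at least 6 and 3 of 3 of at least 10 windows. The level chose these stretches, so it is given as a description with no test, and the spread between libraries within a stretch is bounded by the same choice.

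The share of member windows that were intermediate was highest where CpGs were many. Of the 246 intermediate member windows, 60 had 3 to 4 CpGs, 76 had 5 to 9 and 60 had 10 to 19. Another 18 had 20 to 29 CpGs and 32 had 30 or more. Of member windows with 30 or more CpGs, 32 of 65 (49.2%) were intermediate in all 4 libraries, against 1.05% of all windows of that kind. Member windows were 0.326% of all windows with 30 or more CpGs and 15.3% of the intermediate ones. At 20 to 29 CpGs the shares were 37.5% of 48 member windows and 2.72% of all. At 10 to 19 CpGs they were 15.3% of 391 and 4.52%. With 5 to 9 CpGs they were 4.21% and 3.23%, and with 3 to 4 CpGs 3.81% and 2.41%, so the members lay close to the background there. Of the 33 stretches, 21 had at least 10 CpGs per 500 bp and are called CpG-dense below. The other 12 were CpG-poor.

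**Figure D1:**
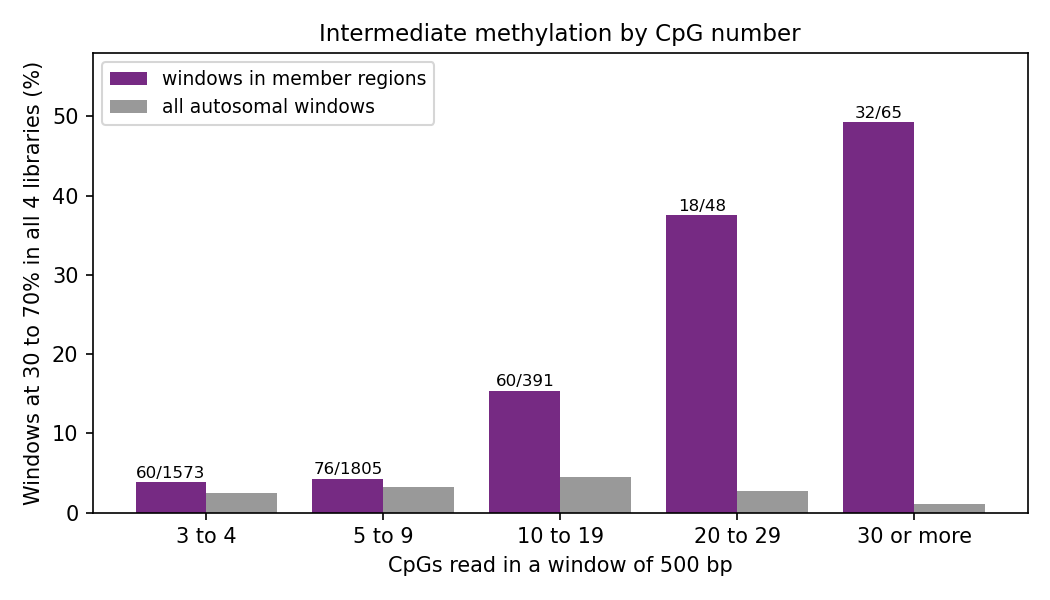
Share of 500-bp windows (y axis, percent) methylated at 30 to 70% in all 4 libraries, by the number of CpGs read in the window (x axis), for windows in the regions of the 37 genes (purple, with the number of windows above the bar) and for all autosomal windows (grey). The purple bars rise from 3.81% to 49.2% while the grey bars stay between 1.05% and 4.52%.

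At the promoters of paternally expressed genes, the control regions stood out as intermediate blocks within methylated DNA. Peg3, a zinc finger gene, shares its promoter with Usp29, a ubiquitin protease gene on the other strand. Their stretch of 10 windows on chromosome 7 from 6727501 to 6732500 was at 48.0%, 54.0%, 45.2% and 51.5%. Both T cell libraries were higher than both B cell libraries there, and the difference of the means was -6.16 points (B minus T). Mest, an enzyme-like hydrolase gene, held, around internal starts, a stretch of 10 windows on chromosome 6 from 30735001 to 30740000 at 47.3%, 43.1%, 45.4% and 44.1%. Mest values spanned 4.22 points, close to the widest 95% Wilson interval of a single library, 4.11 points. Peg10, a gene derived from a retrotransposon, and Sgce, the gene of epsilon-sarcoglycan, start head to head in a stretch of 7 windows from 4746001 to 4749500 on chromosome 6. Its levels were 42.4%, 39.4%, 41.3% and 44.0%. Impact, a regulator of translation, held 6 windows around internal starts at 39.1%, 40.2%, 40.6% and 42.1%, a range of 3.08 points. Wilson intervals cover counting error only, since reads carried no molecular identifiers.

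Blocks were also found at genes nested in larger ones and at internal promoters. Zrsr1, a retrogene related to a splicing factor, lies in an intron of Commd1, and its stretch of 6 windows (chromosome 11, 22971501 to 22974500) was at 46.0%, 47.7%, 47.4% and 49.9%. Peg13, a noncoding RNA gene inside Trappc9, had 6 windows from 72808501 to 72811500 on chromosome 15 at 44.7%, 47.1%, 48.2% and 47.5%. An internal start of Inpp5f, a gene of an inositol phosphatase, had 3 windows at 52.6%, 47.1%, 56.6% and 51.4%. Both B cell libraries were above the T cell library of the same sex there. The stretch in the 5′ part of Inpp5f (2 windows, 128612001 to 128613000) went the other way, at 35.8%, 47.3%, 44.6% and 58.4%. Grb10, an adaptor that restrains growth signalling, had 2 very CpG-rich windows at an internal start, at 47.3%, 48.2%, 42.2% and 35.7%. Here both female libraries were higher than both male libraries, by 8.79 points on the mean.

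The promoters of the long antisense RNAs were intermediate as well. Kcnq1ot1, the noncoding RNA that silences genes of its domain on the paternal chromosome, starts in a stretch of 5 windows from 143294501 to 143297000 on chromosome 7. It was at 43.7%, 47.8%, 44.3% and 45.4%, and 100% of its 105 CpGs lay between 30 and 70% when the libraries were joined. Airn, which runs antisense to the growth factor receptor gene Igf2r, starts in 4 windows from 12741001 to 12743000 on chromosome 17. Airn was at 56.3%, 51.3%, 56.1% and 40.8%, and the male T cell library stood below the other three. Nespas, antisense to the first exons of Gnas, starts in the longest stretch of all, 12 windows from 174294001 to 174300000 on chromosome 2. The 279 CpGs of that stretch, which also holds an internal start of Gnas, were at 46.5%, 46.8%, 47.1% and 48.8%, a range of 2.28 points.

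Gnas, which encodes the stimulatory G protein alpha subunit, had 2 further stretches. The one at its most 5′ starts, inside the body of Nespas (9 windows, 174283501 to 174288000), was at 48.4%, 49.4%, 48.9% and 47.5%. This range of 1.91 points was the smallest of the 33 stretches. Each of its parts of 1 kb spanned more, as at 174287001, at 42.7%, 55.5%, 50.9% and 44.9%. The level of a long stretch thus averages over parts in which the libraries differed more. The stretch known as exon 1A (6 windows, 174326001 to 174329000) was at 40.2%, 43.2%, 52.0% and 45.1%, with male B cells above the other libraries. The DNA from 1 to 3 kb beyond its right end was at 1.18% over the 4 libraries, where 4 further Gnas starts lie, so an intermediate and an unmethylated promoter stood side by side. On the left the same distance was at 94.4%.

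Stretches were also found at promoters whose methylation is known to be acquired later, on the paternal chromosome, as a consequence of the germline imprint. Cdkn1c, an inhibitor of the cell cycle, had 4 windows over its start (143459001 to 143461000) at 36.2%, 41.6%, 42.9% and 39.6%. The start of Igf2r had 2 windows, with 54.5 CpGs per 500 bp, at 41.8%, 36.8%, 38.8% and 33.4%. These levels included the lowest mean of the 33 stretches, 37.7% at Igf2r. The most 5′ starts of Gnas belong to the same kind of promoter, but their mean was 48.6%.

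**Figure D2:**
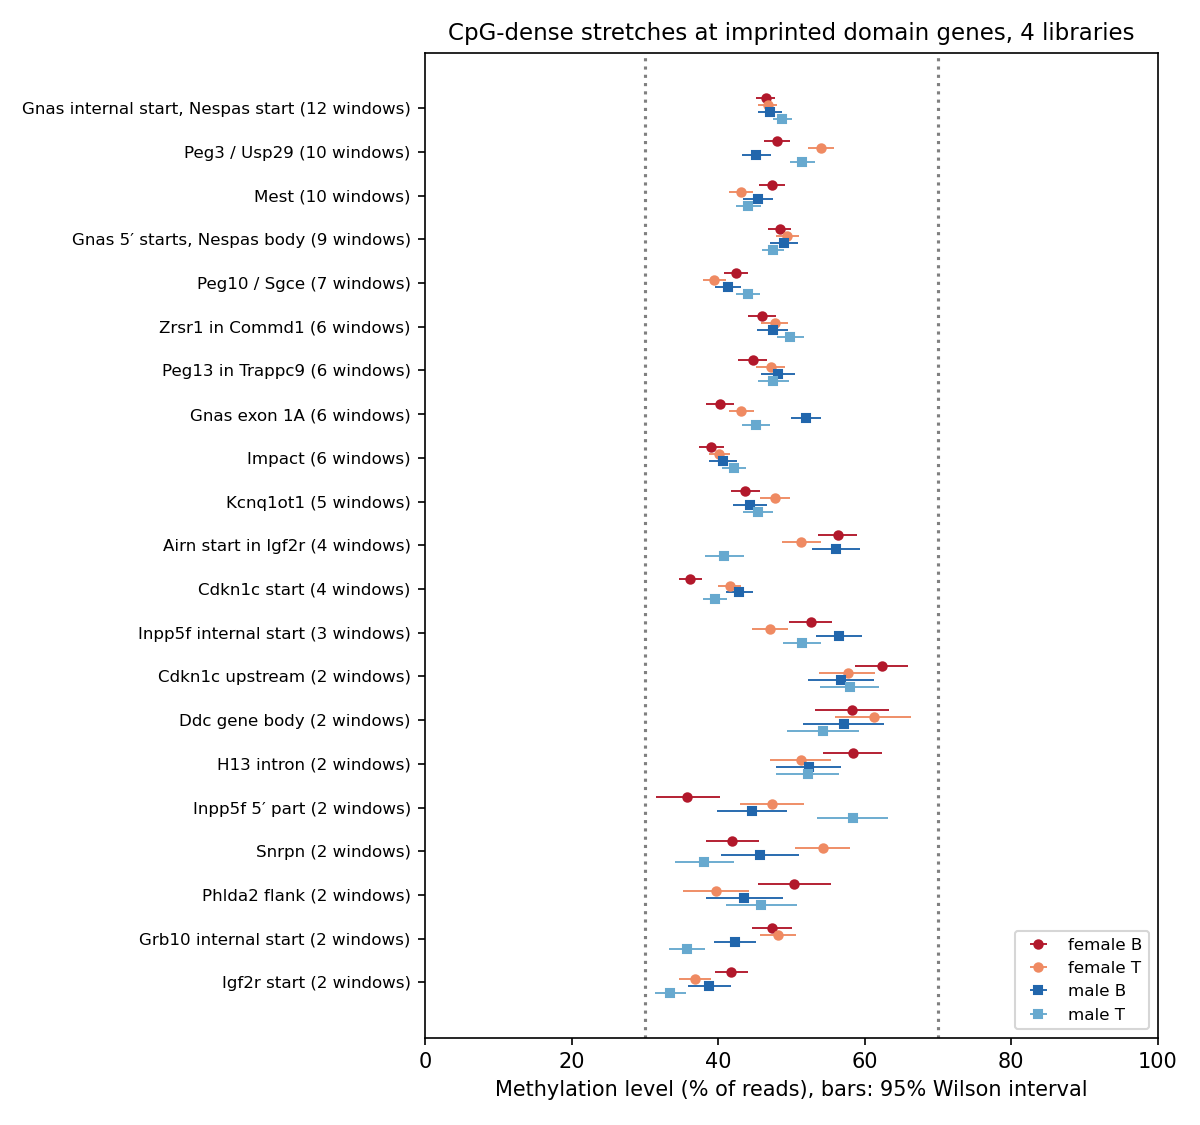
Methylation level (x axis, percent of reads methylated) of the 21 CpG-dense stretches in each of the 4 libraries, ordered by length, with 95% Wilson intervals of the read counts as bars; the dotted lines mark the limits of 30 and 70% used to find them. Levels are close together at the Gnas internal start (46.5 to 48.8%) and further apart at Peg3 (45.2 to 54.0%) and Gnas exon 1A (40.2 to 52.0%), and the widest range is 22.7 points at the 5′ part of Inpp5f (35.8 to 58.4%).

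Over the 21 CpG-dense stretches the median of the mean level was 46.5%, from 37.7% to 58.7%. The highest and lowest library of a stretch differed by a median of 6.97 points and by 1.91 to 22.7 points. B minus T had a median of 0.127 points, with B higher in 11 of 21, and females minus males had a median of 0.471 points, with females higher in 12 of 21. The DNA 1 to 3 kb to either side had a median level of 85.6%. In the median stretch 94.5% of the CpGs were individually between 30 and 70%. This was not so everywhere. In the stretch in an intron of H13, a signal peptide peptidase gene, only 4.17% of the 24 CpGs were intermediate, and at Ddc, the gene of dopa decarboxylase, 25% of 20, so these levels were averages of methylated and unmethylated CpGs. The H13 stretch was at 58.4%, 51.3%, 52.3% and 52.2%, and that of Ddc at 58.3%, 61.3%, 57.2% and 54.3%. Reads per CpG in the CpG-dense stretches were 0.684 to 1.70 times the median of their library.

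**Figure D3:**
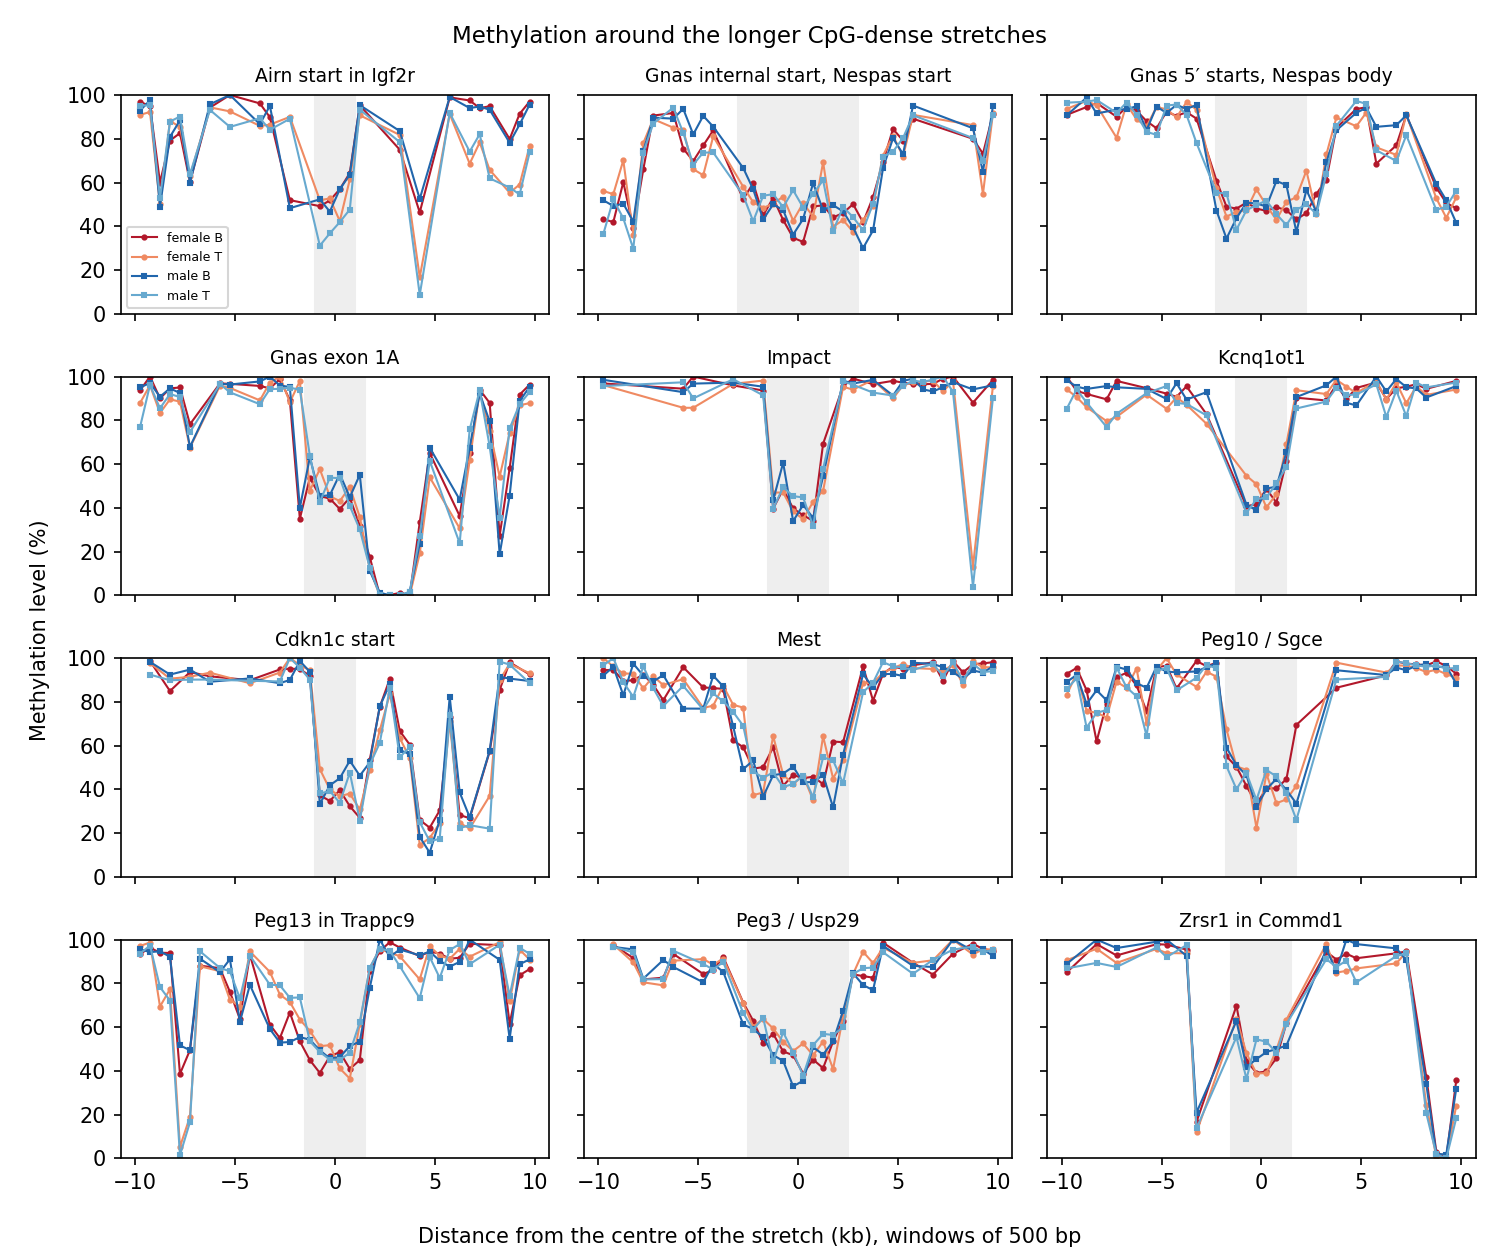
Methylation level (y axis, percent) in windows of 500 bp against the distance from the centre of the stretch (x axis, kb) for the 12 CpG-dense stretches of at least 4 windows, with a line for each library; grey marks the stretch, and windows with under 3 CpGs or 20 reads are left out. Inside the grey bands the lines lie at intermediate levels, while the flanks are mostly higher but not everywhere, and the libraries part in some of them, as left of Gnas exon 1A and on both sides of Airn; from 1 to 3 kb right of Gnas exon 1A the mean is 1.18%.

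Snrpn, at the imprinting centre of its domain and coding for a splicing protein, had a short stretch only. Its 2 windows on chromosome 7 (60004001 to 60005000) were at 41.9%, 54.3%, 45.7% and 38.0%. The tile of 1 kb that adjoins it and holds the Snrpn start was at 66.4%, 42.5%, 48.0% and 29.7%. Both B cell libraries were above the T cell library of the same sex in that tile, and it was called between B and T cells (21.1 points, adjusted p = 2.01e-05 by edgeR's quasi-likelihood test with Benjamini-Hochberg adjustment over all tiles). Female B cells were also above male B cells. Of the other members of the domain, Magel2, a gene of the MAGE family, had a CpG-poor stretch of 3 windows just before its start at 35.5%, 48.4%, 44.9% and 42.4%. The single starts of Mkrn3 and Ndn were at 29.6% to 33.4% and at 80.4% to 86.5%. Ube3a, a ubiquitin ligase gene, had 9 starts below 10% in every library and no stretch.

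No stretch was found in the regions of 10 members, namely Zim1, Ndn, Mkrn3, Ube3a, Plagl1, Nnat, Blcap, Slc22a3, Nap1l5 and Herc3. Several of these missed the limits narrowly. The promoter of Plagl1, a zinc finger transcription factor, had 3 windows whose mean over the libraries was in range (chromosome 10, 13090501 to 13092000), at 43.8%, 36.7%, 53.9% and 44.9%. All 91 CpGs of that block, or 100%, were intermediate when the libraries were joined. Nnat, a small membrane proteolipid gene inside an intron of Blcap, had 5 such windows (chromosome 2, 157559501 to 157562000) at 53.9%, 53.6%, 63.0% and 63.0%. Both male libraries were above both female libraries at Nnat, by 9.24 points. Nap1l5, a nucleosome assembly gene inside Herc3, was at 57.8% to 71.4% and 59.6% to 71.6% at its 2 starts, so that only female T cells passed the upper limit. At Mcts2, a retrogene inside H13, the start was at 94.8%, 95.6%, 96.5% and 94.2%, in all 4 libraries. The imprinted promoter of Mcts2 is known to be intermediate, and whether the annotated start marks it, or reads are shared with the parent gene, was not tested. The range asked of the mean, in place of every library, was added after the data were seen.

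The remaining members had promoters of other kinds. Blcap, the host of Nnat, had 3 starts below 10% some distance from the Nnat block and 1 intermediate start. A start of Blcap lay inside that block. Zim1, a zinc finger gene next to Peg3, was at 18.3% to 25.4% at its 2 CpG-rich starts. Phlda2, a gene that limits placental growth, had 2 starts below 10% and another start at 7.41% to 13.4%, and the stretch in its flank was at 50.4%, 39.6%, 43.5% and 45.9% with only 33.3% of its CpGs intermediate. Slc22a18, a transporter gene, was at 53.7%, 29.1%, 47.7% and 41.1% at its first start, which has 6 CpGs. Kcnq1, a potassium channel gene, had 2 starts below 10%, at 4.52% to 8.50%, beside intermediate ones. The start of Slc22a3 at 12507416 was at 2.66% to 9.84%.

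The 12 CpG-poor stretches were 1 to 1.5 kb long and had 4.5 to 9 CpGs per 500 bp. They lay in Usp29 (3), the body of Kcnq1 (3), Grb10 (3), Ddc, Slc22a18 and at Magel2. Their levels spanned a median of 12.9 points over the libraries, with single-library intervals as wide as 16.3 points on 140 to 388 reads summed over CpGs. A start of the members lay in only 2 of them. The difference between B and T cells reached -15.2 points, in Grb10 (11960501 to 11961500, at 47.6%, 54.9%, 40.1% and 63.3%).

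Transcript starts showed the same split by gene. A window of 500 bp on either side could be read at 206 of the 216 starts. Of these, 89 (43.2%) were at 30 to 70% in every library, against 3.76% of 111850 autosomal starts. Starts below 10% in every library numbered 49 (23.8%, against 39.3% of all), and starts above 70% also 49 (23.8%, against 43.4%). Many starts of 1 gene share a window, so they are not independent. All readable starts were intermediate in Nnat (10), Nespas (3), Zrsr1 (3), Peg3 (3), Peg10 (2), Kcnq1ot1, Peg13 and Snrpn (1 each). Sgce had 10 of 12, Plagl1 8 of 11, Usp29 6 of 9 and Impact 6 of 9. At Impact 2 starts at the 5′ end of the gene were below 10%, and at Mest 7 of 10 starts were above 70%, so both genes had intermediate and other promoters.

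Unmethylated promoters were seen in several genes that host or overlap an imprinted gene, and in Ube3a. In Copg2, a coat protein gene that overlaps the end of Mest, 8 of 8 starts were below 10% in every library, and the highest level was 5.04%. In H13, Herc3, Trappc9 and Commd1 the numbers were 4 of 5, 5 of 12, 3 of 4 and 3 of 6. Over these genes and Ube3a, 32 starts were below 10%, with a highest level of 6.67% at Commd1. Ddc, the neighbour of Grb10, had 0 of 10 starts below 10% and 9 above 70%. The intermediate block of Zrsr1 and the unmethylated starts of Commd1 lay within 10 kb of each other.

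**Figure D4:**
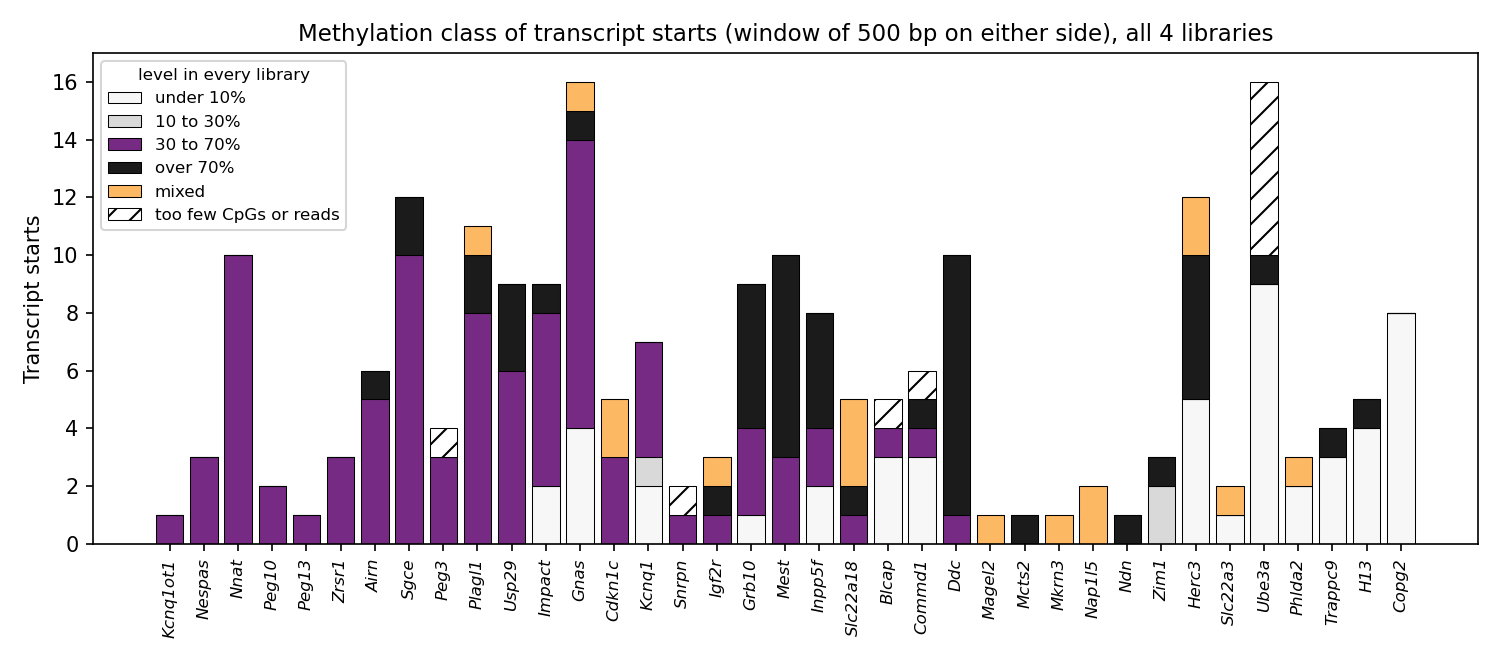
Number of transcript starts (y axis) of each of the 37 genes (x axis) by the methylation of the window of 500 bp on either side; a class needs the level in all 4 libraries, mixed means that the libraries fell in different classes, and hatched starts had too few CpGs or reads. Purple, 30 to 70%, fills the bars of genes such as Nnat and Nespas and is absent from the bars of Copg2, H13, Herc3, Trappc9 and Ube3a.

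The hexamer TGCCGC, searched with its complement GCGGCA, was found in 18 of the 21 CpG-dense stretches and 89 times in all. The hexamer holds a CpG, so it is more frequent where CpGs are. Among windows with 20 or more CpGs, 63.0% of the 46 stretch windows and 33.1% of all 42300 autosomal windows had at least 1. With 30 or more CpGs the shares were 67.9% of 28 and 42.1% of all, and with 10 to 19 CpGs 20% of 45 and 12.5%. The Gnas internal start and Mest had 12 copies each, and Peg3, Airn and Snrpn 8 each. H13, the Ddc body and the stretch upstream of Cdkn1c had none of these letters. The letters GCCATNTT, bound by YY1 and searched on both strands, were in 13.8% of all stretch windows and 10.7% of all autosomal windows. Among windows with 20 or more CpGs the order was the other way, 6.52% and 11.1%. The Peg3 stretch held 10 of the 26 copies found over the 33 stretches. A match is a description of the sequence and not a site of binding.

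Whether these regions differ between the cell types was tested on tiles of 1 kb, with methylated and unmethylated reads fitted in edgeR over all 1530528 tiles and terms for cell type and sex. A tile was called at an adjusted p under 0.05 and at least 20 points between the means. Of 2240 member tiles, 81 (3.62%) were called, against 3.17% of all tiles, so the members did not stand apart from the background in number. In 56 tiles methylation was higher in B cells (2.5%, against 2.36% of all) and in 25 it was lower (1.12%, against 0.812%). The median difference was 0.869 points over the member tiles and 0.788 over all. All 81 had the same direction in females and males, which calling them on these same libraries makes likely. The edgeR fit judged each tile by a spread shared by all tiles, as there are 2 libraries a side and 1 residual degree of freedom per tile.

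The stretches were chosen to lie at 30 to 70% in every library, so large gaps between the libraries were removed beforehand, and the calls on their tiles are given as counts and not as a test of the control regions. No tile on a CpG-dense stretch was called. Of these 58 tiles 6 (10.3%, against 17.7% of all tiles) had an unadjusted p under 0.05 in edgeR. In limma 0 had one, against 16.3% of all tiles, and 0 were called, against 2.56%. Without the minimum of 20 points edgeR called 3 of them, or 5.17%, against 9.35% of all tiles. Leaving out the male B cell library gave 1 call on them, and leaving out any other library 0. The 3 tiles that passed without the minimum lay in Peg10, Airn and the 5′ part of Inpp5f. The Airn tile at 12742001 was at 59.5%, 50.5%, 59.5% and 44.2% (12.2 points, adjusted p = 0.0171, edgeR), and that of Inpp5f at 35.8%, 47.3%, 44.6% and 58.4% (-12.7 points, adjusted p = 0.0141, edgeR). Next to the stretches 4 tiles were called, of which that at the Snrpn start lay outside because male T cells were below 30% there. How many tiles adjoin a stretch was not counted, so no share stands beside these 4. Whether such borders differ more than other tiles was not tested. The tile left of Gnas exon 1A, at 174325001, was at 64.9%, 92.2%, 65.2% and 94.5% (-28.3 points, adjusted p = 4.59e-11, edgeR). The tile beside the Igf2r start, at 12768001, was at 83.6%, 60.4%, 89.9% and 60.9%, and that beside the Ddc stretch, at 11872001, at 36.5%, 67.1%, 38.3% and 75.8%. In each of these 3 both B cell libraries were on the same side of both T cell libraries. On 2072 tiles of CpG-dense stretches outside the member regions, found by the same range, 25 (1.21%) were called, which is the background for the count of 0 in 58. The largest difference on the 58 tiles was 13.6 points, in the last tile of Peg10. That tile was at 60.5%, 37.2%, 34.7% and 30.8%, so the female B cell library alone was high. The fit left more scatter on these tiles than elsewhere. The median deviance left by the fit was 1.17 on the 58 tiles, 0.452 on the tiles of CpG-dense stretches outside the members, 0.604 on all 9689 tiles with an intermediate mean and 20 or more CpGs, and 0.502 on all tiles. The spread shared by all tiles was thus smaller than that of the counts on these tiles. Calls on 1 read were counted as independent, so whether the libraries themselves scattered more was not tested.

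Of the 81 called tiles, 77 lay in the body of a member gene and 19 touched an exon. The regions are mostly gene body, with 3295 of their 3882 windows of 500 bp left when the flanks are dropped. The same shares over all member tiles were not counted. Herc3 had 10 of 83 tiles called, all higher in B cells. A tile in a Herc3 intron (chromosome 6, 58881001 to 58882000) was at 90.4%, 12.8%, 90.5% and 15.2%. Its difference of 76.4 points was the largest of the 2240 tiles (adjusted p = 2.34e-41, edgeR). Tiles at 58843001 and 58844001, downstream of the unmethylated Herc3 starts, were at 84.5%, 6.18%, 78.0% and 5.26%, and at 91.3%, 19.4%, 94.8% and 18.04%. In all of them both B cell libraries were far above both T cell libraries. The next tile upstream, at 58842001, was at 93.4%, 34.0%, 89.0% and 36.7%. The Nap1l5 region itself had 0 of 18 tiles called.

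The Airn and Igf2r bodies had the next cluster. Igf2r had 12 of 95 tiles called, 11 of them higher in B cells, and Airn, which overlaps it, 14 of 125 with 13 higher. The tile about 3 kb upstream of the Igf2r start (12773001 to 12774000), inside Airn, was at 93.9%, 42.5%, 91.4% and 35.8%. Slc22a3, an organic cation transporter gene of the same domain, had 5 of 97, in both directions. In its body the tile at 12489001 was at 29.8%, 86.6%, 30.7% and 88.2%, whereas the tile at 12494001, 5 kb on, was at 85.2%, 34.7%, 88.5% and 29.6%.

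Among the calls that were lower in B cells, the largest differences were in the regions of Commd1 and Ddc. Commd1 had 5 of 79 tiles called, with 3 higher and 2 lower. The tile at 22892001, beyond the 3′ end of Commd1, was at 32.5%, 92.7%, 29% and 93.9% (-62.6 points, adjusted p = 1.51e-46, edgeR). Ddc had 11 of 94 tiles called, with 6 higher and 5 lower. An exonic tile of Ddc at 11861001 was at 29.8%, 86.3%, 21.3% and 83.5%. Trappc9, a vesicle trafficking gene that hosts Peg13, had 13 of 426 called, 9 of them lower in B cells. That share of 3.05% was near the 3.17% of all tiles. In Impact, 1 tile 7 kb past its intermediate block was at 86.9%, 33.3%, 95.5% and 16.1%. The 10 tiles with the largest differences, all given above, were called under every alternative that could test them. In the domains of Peg3 and Nnat 0 of 247 and 0 of 32 tiles were called.

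By distance, 22 of the 301 member tiles within 10 kb of a CpG-dense stretch were called (7.31%), 24 of 626 at 10 to 50 kb (3.83%) and 34 of 1179 further away on the same chromosome (2.88%). Of the 22, 9 were in the Airn domain and 6 in the Grb10 domain, all of the latter in Ddc. The higher share near stretches thus rested on 2 domains and was not tested.

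**Figure D5:**
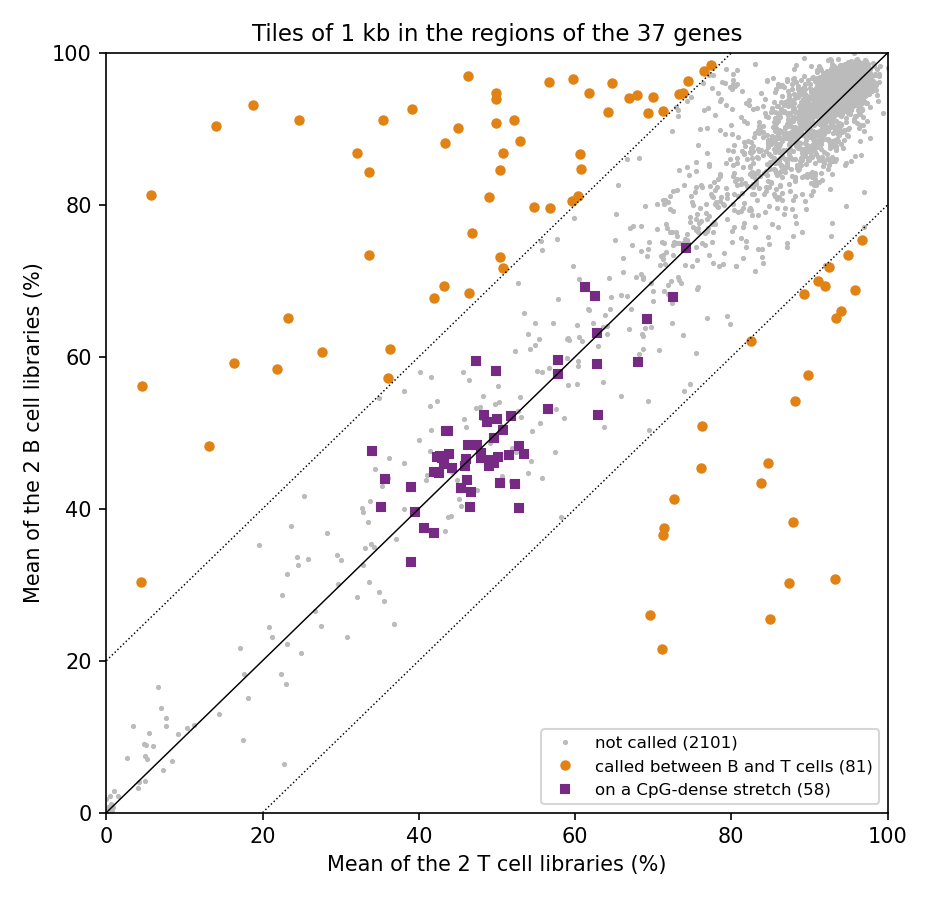
Mean methylation of the 2 B cell libraries (y axis, percent) against that of the 2 T cell libraries (x axis, percent) for the 2240 tiles of 1 kb in the member regions; dotted lines mark a difference of 20 points, orange the 81 called tiles and purple the 58 tiles on CpG-dense stretches. The purple points lie along the diagonal within 13.6 points of it, and the orange points reach 76.4 points above it.

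At transcript starts 3 of 206 member windows were called between B and T cells (1.46%, against 2.8% of all 114911), all higher in B cells. An unadjusted p under 0.05 was reached by 37 of the 206, against 26.7% of all. The called starts were 2 internal starts of Herc3 and 1 of Igf2r. The Herc3 start at 58833700 was at 79.6%, 35.3%, 67.3% and 32.0%, and that at 58871774 at 99.1%, 73.7%, 96.8% and 73.5%. The Igf2r start at 12750800 was at 82.97%, 51.6%, 83.1% and 56.4%. None of the 3 was an intermediate promoter in all libraries, and none was called by limma or in any of the 4 fits that left out one library in turn, each of which called 0 member starts. Over all starts the calls fell as well, from 3217 to 34 with limma and to between 0 and 433 in those fits. With windows of 1 kb on either side 2 of 214 member starts were called, against 2.43% of all.

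Between females and males no member tile or start was called. All members are autosomal, and over the autosomes 0.00134% of tiles and 0.00179% of starts were called. With the X included these shares were 0.0868% and 1.28%. Of the member tiles 119 (5.31%, against 5.15% of all) had an unadjusted p under 0.05 in edgeR and 107 (4.78% against 5.51%) in limma, which called 0. Of the starts 32 (15.5%, against 9.02% of all) had one in edgeR and 15 (7.28% against 6.86%) in limma, which also called 0. With the adjusted p alone, 2 of 2240 member tiles and 1 of 206 starts passed. The autosomal shares at that setting were 0.0237% of tiles and 0.733% of starts, and 0.124% and 2.1% with the X. The tile over the Nnat start (chromosome 2, 157560001 to 157561000) was at 44.7%, 36.6%, 59.0% and 54.9%. Both female libraries were lower, by 16.3 points on the mean (adjusted p = 0.0143, edgeR), and the most 3′ Nnat start was lower by 16.7 points (adjusted p = 0.0317, edgeR). The other tile was the last of Peg10, where the values above show only female B cells to be high (adjusted p = 0.0403, edgeR). The fits that left out 1 library called 0 tiles and 0 starts between the sexes over the whole genome, X included, so they do not bear on these differences.

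Whether the difference between B and T cells itself differed by sex was tested in place of the sex term. Differences between the sexes thus became part of the error of this test. The spread shared by all tiles (edgeR's common dispersion) was 0.0171 in it, against 0.00626 with the sex term. The test was weaker for that reason, and a count of 0 does not show that the sexes were alike. The count was 0 of 2240 member tiles, against 0.000784% of all and 0.000134% of autosomal tiles. An unadjusted p under 0.05 was reached by 101 member tiles in edgeR (4.51%, against 4.36% of all). In limma it was reached by 100 (4.46% against 4.77%), and limma called 0 member tiles and 0 of all tiles.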

How the data were processed

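WGoxBS reads of B and T cells were processed by the authors, and the submitters' processing notes name Trim Galore, FastQC, Bismark 0.13.1 and the build mm10. The deposited files, 1 per group, list each CpG with at least 5 reads, with its methylation level as a fraction and its read count (unit counts). Whether a file joins both samples of its group is not given in the sources used here. The study treats WGoxBS as reading 5mC with any 5hmC, although the oxidation is meant to leave 5mC alone.

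Methylated reads were recovered from level times reads. All 20645953 positions listed in any library, on the autosomes and X, lay on a CG of GRCm38. Of these, the CpGs listed in all 4 libraries were kept. A window of 500 bp needed 3 CpGs and 20 reads, summed over its CpGs, in every library. Tiles of 1 kb and start windows needed 5 CpGs and 20 reads, and were tested with edgeR 4.0.16 (glmQLFit, glmQLFTest; limma 3.58.1 as an alternative) in R 4.3.3, with Benjamini-Hochberg adjustment over all tiles or all starts. Prior degrees of freedom were estimated as infinite. On simulated data for the B against T comparison (50000 tiles), changes of 20 points were recovered in 68% and of 30 points in 98% of cases. Recovery was by adjusted p alone, without the minimum of 20 points that a call also needs, and 0 unchanged tiles were called with that minimum. The simulated spread between libraries was set in advance and not estimated from these data, and only tiles at intermediate levels were changed. Recovery on the real tiles may therefore differ. In edgeR the p-values rest on a spread between these 4 libraries that is shared by all tiles or all starts. They do not measure the spread of a single tile or start. The separate origin of the libraries is known only as pools of mice.

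Levels carry 95% Wilson intervals for counting error, with the calls at all CpGs of a stretch taken as independent. The members, lists and motifs were chosen with earlier results of these data known. Named were all stretches by domain, the classes of all starts, and the 10 called tiles with the largest difference. Of the sample columns, 0 went unused.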

Additional observations from a re-analysis of the deposited data

How the results depend on the processing

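Of the counts for the scan, the genes with a stretch stayed within 1.5 times of 27 under all 17 alternatives. The 246 member windows became 157 at 35 to 65% (4.04% of member windows, against 1.6% of all) and, under the range asked of the mean of the 4 libraries (added after the data were seen), 428 (11% against 7.14%). The 33 stretches, 0.506% of all, became 50 at 25 to 75% (0.358%), 149 with single windows (0.214%), 15 with at least 3 windows (2.29%) and 68 under the mean (0.268%). Leaving out 1 library gave 262 to 268 windows, 33 to 37 stretches and 27 to 30 genes. The 81 tiles called between B and T cells became 166 at a minimum of 10 points (7.41%, against 6.67% of all tiles) and 236 with none (10.5% against 9.35%), limma called 68 (3.04% against 2.56%), and leaving out 1 library gave 81 to 86. The 3 starts called became 5 at 10 points (2.43%, against 5.93% of all starts), 26 with no minimum (12.6% against 15.5%), 0 with limma and 0 to 0 on leaving out 1 library. Between sexes, 10 points or no minimum both gave 2 tiles and 1 start in place of 0. Fits without 1 library rest on fewer libraries, which are assumed to vary alike. Levels of CpG-dense stretches moved outside their interval in 7 of 84 cases with unweighted CpGs and 9 of 84 with CpGs of at least 10 reads, by at most 10.6 points, and their median stayed within its interval. No paired analysis was possible because each group has 1 library and the groups share no replicate number. Levels of CpG-poor stretches rest on 140 to 388 reads a library, summed over CpGs, with intervals up to 16.3 points wide.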

Other observations

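Genes known to set or keep imprints were listed apart from the members, and the 5′ end of 20 of 21 could be read. Of these, 12 were below 10% in every library, among them Tet2, a 5mC oxidase gene, Ctcf, Yy1, Smchd1 and Hells, and 5 were above 70% in every library. Zfp57, whose protein keeps imprints in the embryo, was at 93.4%, 93.8%, 92.7% and 92.9% in B then T cells of females, followed by B then T cells of males. Its relative Zfp445 was at 8.15%, 6.90%, 9.93% and 7.02%. Over all their 145 tested starts, 0 were called between B and T cells (43 at an unadjusted p under 0.05, edgeR) and 0 between the sexes. Over all starts 2.8% were called between B and T cells and 26.7% had an unadjusted p under 0.05, and 0.00179% of autosomal starts were called between the sexes.

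Domains methylated on the paternal chromosome (H19, Igf2, Dlk1, Meg3, Rtl1, Rian, Mirg, Rasgrf1 and Zdbf2) gave 64 of 699 windows in range (9.16%) and 14 stretches in the same scan, with a median mean level of 48.6%. They had 5 of 654 stretches of at least 3 windows, 4 of 120 of at least 4 and 4 of 32 of at least 5. Of at least 6 windows they had 1 of 15, and of at least 10 windows 0 of 3. Up to 5 windows their share thus rose with length, as that of the members did.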
